A study of Mus musculus with 4 samples.

Results

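The Nrf2 antioxidant genes analysed here are *Nfe2l2*, which encodes Nrf2, its inhibitor *Keap1*, and the target genes *Hmox1*, *Nqo1*, *Gclc*, *Gclm*, *Txnrd1*, *Srxn1*, *Gsr* and *Gstm1*. They were chosen by symbol, as 10 of the 24391 genes in a table of RNA-seq counts from primary mouse embryonic fibroblasts (MEFs), and all 10 were found. The study deleted *Phf2*, which encodes a histone-binding protein of the Jumonji family, in MEFs held in quiescence, and compared 2 *Phf2* KO libraries with 2 WT libraries, numbered 1 and 2 in each group. By the labels all 4 libraries carry *Phf2* flox/flox and ERCre/+, a tamoxifen-activated Cre recombinase expressed from Rosa26, and tamoxifen is named as a treatment for the *Phf2* KO libraries alone. Tamoxifen, Cre activity and loss of *Phf2* therefore cannot be told apart. The protocol, which is the same text for every library, gives 0.5 µM 4-hydroxytamoxifen for 7 days in Opti-MEM with 2% charcoal-treated serum. The medium and vehicle of the WT cells are not stated by name. The MEFs came from E13.5 embryos, and the libraries of a group are described as biological replicates, with no embryo or culture named.

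Each library held between 21094743 and 26094268 counts, and 3 counts, taken as the limit of detection, were worth between 0.116 and 0.145 CPM (reads as a share of the library, in parts per 1e6, after TMM normalization in edgeR). This limit and all intervals named as counting intervals cover counting error only. *Phf2* itself had 3244 and 3680 reads in WT (replicate 1, then replicate 2, as in all pairs of values that follow) against 1454 and 2158 in *Phf2* KO, which left 57.9% of the WT level. The counts cover the whole gene and not only its floxed part. The cells expressed all 10 fibroblast markers of a list, such as the collagen gene *Col1a1*. They summed to 76287.5 and 82050.5 CPM in WT and to 71517.5 and 69524.6 CPM in *Phf2* KO. Both *Phf2* KO sums were thus below both WT sums. Most of each sum came from *Col1a1*, *Col1a2*, *Col3a1* and *Fn1*, at 9976 to 27581 CPM. Of the 10 markers 3 had a fold change above 0 (*Pdgfrb*, *Thy1* and *Vim*), and the median was -0.12 on the log2 scale. The 20 macrophage markers of another list were also detected. Their sum was higher in replicate 1 than in replicate 2 of both groups, at 4581 and 995 CPM in WT and 5169 and 1543 CPM in *Phf2* KO. Replicate 1 held *Xist* and replicate 2 the Y-linked *Ddx3y* in both groups: *Xist* had 10042 and 3 reads in WT against 8336 and 12 in *Phf2* KO. The 2 libraries of a group thus held cells of different sex, and the spread between them on which p-values rest includes that difference. Values within each replicate number are therefore given beside those of the groups. In bulk RNA, fewer cells of a type and less RNA per cell cannot be told apart.

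Nrf2 is a transcription factor of the cap'n'collar family that protects cells from oxidants and reactive chemicals. In unstressed cells Keap1, an adaptor for the Cul3 ubiquitin ligase, holds Nrf2 and has it degraded. When Keap1 cysteines are modified, Nrf2 escapes, pairs with a small Maf protein and binds antioxidant response elements near its target genes. The amount of Nrf2 protein is thus set mainly after transcription, while the mRNAs of the targets are commonly read as a measure of its activity.

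The core of the antioxidant response element, TGACNNNGC, was searched on both strands of the 250 bases upstream of each start in a RefSeq promoter table (made on GRCm38.p6), which holds 7 of the 10 genes. *Hmox1*, *Gclc* and *Gsr* are not in it. The core was found upstream of 3 of the 7 genes, *Nfe2l2*, *Gclm* and *Txnrd1*, and upstream of 11.5% of the 27025 genes of the table. The AP-1 element TGANTCA, whose letters overlap those of many antioxidant response elements, was found upstream of *Srxn1*, at 2 places, and upstream of 7.82% of all genes. Neither was found in these windows of *Keap1*, *Nqo1* or *Gstm1*, which says only that these letters are not in them. The stretches shown are those that hold one of these elements, the antioxidant response element core for *Nfe2l2*, *Gclm* and *Txnrd1* and the AP-1 element for *Srxn1*. They are written in the direction of the gene, with the element in capitals. Positions are in mm9 (NCBIM37), the build of the counts. The 250 bases that hold each stretch matched a single place on the chromosome of the gene, and other chromosomes were not searched:
*Nfe2l2*, chr2:75542936-75542970, reverse strand: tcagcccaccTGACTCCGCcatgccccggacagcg
*Gclm*, chr3:121948325-121948365, forward strand, element on the other strand: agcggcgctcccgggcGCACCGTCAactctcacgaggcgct
*Txnrd1*, chr10:82321843-82321883, forward strand, element on the other strand: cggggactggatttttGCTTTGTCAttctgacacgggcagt
*Srxn1*, chr2:151931142-151931180, forward strand: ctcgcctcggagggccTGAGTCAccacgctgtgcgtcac
*Srxn1*, chr2:151931199-151931237, forward strand: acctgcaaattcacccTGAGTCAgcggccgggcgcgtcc
The *Txnrd1* stretch belongs to the second of 3 starts listed for that gene.

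To ask whether loss of Phf2 changed the expression of these genes, *Phf2* KO was compared with WT across all 13668 genes that passed edgeR's filter on low counts, among them all 10 Nrf2 antioxidant genes. None of the 10 was called by edgeR's quasi-likelihood test at an adjusted p-value under 0.1, and 0.00732% of all genes were. This test did not call the deleted gene either: *Phf2*, at a log2 fold change of -0.79 (standard error 0.14), had an adjusted p of 0.999 in edgeR, against 0.0032 in DESeq2 and 7.67e-19 in edgeR with the replicate number as a term. At an unadjusted p-value under 0.05 the test also gave 0 of the 10, against 4.21% of all genes (1.54% higher and 2.67% lower). DESeq2 called 0 of the 10 (0.400% of the genes to which it gave an adjusted p-value), and limma-voom 0 (0.00% of all genes). When edgeR's fit also held the replicate number (a block), 11.0% of all genes were called (5.77% higher and 5.20% lower), and again 0 of the 10. With 4 libraries that fit has little spread of each gene's own to use, and its p-values rest largely on a spread shared across genes. Its standard errors were 0.082 for *Keap1*, *Txnrd1* and *Gstm1* alike, and 0.083 for *Phf2*. The same block gave 0 of the 10 in limma-voom (10.0% of all genes) and 0 of 9 in DESeq2 (4.00% of the genes with an adjusted p-value), which gave none to *Nqo1*. Fold changes among the 10 lay between -0.29 for *Nqo1* and 0.17 for *Gclm* on the log2 scale, with a median of 0.05, against 0.01 over all genes tested. Their median size, regardless of sign, was 0.12, as it was over all genes. Of the 10, 6 were above and 4 below 0 (7003 and 6665 of all genes), and all had an adjusted p of 0.999 by edgeR's quasi-likelihood test.

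A p-value that misses the threshold does not show that the levels were the same, so 95% intervals of the fold change are given from the same fit. These intervals all held 0. For 8 of the 10 genes they lay within 1 log2 unit of 0, so that a doubling or a halving was outside them, and for 5 within 0.5 log2 units. The exceptions to the wider bound were *Hmox1*, with an interval from -0.85 to 1.17, and *Nqo1*, from -1.02 to 0.44. The narrowest belonged to *Gstm1*, from -0.16 to 0.29.

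**Figure D1:**
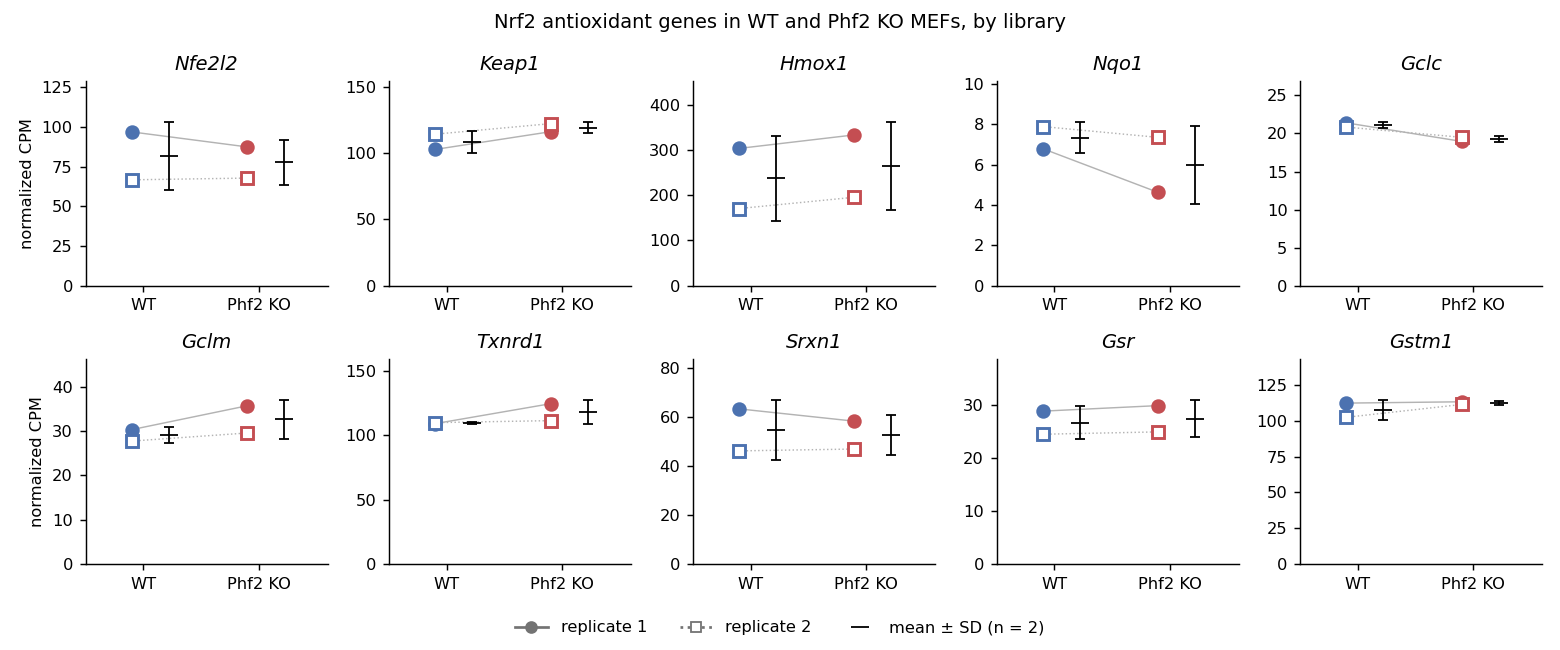
Normalized CPM (vertical axis, from 0) of each Nrf2 antioxidant gene in the 2 WT (blue) and 2 *Phf2* KO (red) libraries. Filled circles are replicate 1 and open squares replicate 2, thin lines join libraries of one number, and black marks give the mean ± SD (n = 2). *Hmox1*, *Nfe2l2* and *Srxn1* were higher in replicate 1 than in replicate 2 of both groups, and the means of WT and *Phf2* KO lay close together beside that difference.

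The regulators were *Nfe2l2* (chromosome 2 of mm9, 75513570 to 75542698, reverse strand) and *Keap1* (chromosome 9, 21034174 to 21043776, reverse strand). *Nfe2l2* was at 96.9 and 66.7 CPM in WT and at 87.5 and 67.8 CPM in *Phf2* KO. Replicate 1 was the higher in both groups, and the groups overlapped. Mean CPM was 81.8 ± 21.4 in WT and 77.6 ± 13.9 in the *Phf2* KO libraries (SD, n = 2 each). The fitted log2 fold change was -0.08 (standard error 0.23), and it was 0.23 without WT replicate 1 and 0.09 without *Phf2* KO replicate 2. Leaving out a library leaves its group with a single replicate number. The difference between replicates then enters the fold change, here and in all such values below. *Keap1* was at 102.8 and 114.3 CPM in WT and at 116.1 and 122.2 CPM in *Phf2* KO. Both *Phf2* KO libraries were above both WT libraries, by a small margin for the nearest pair. For *Keap1* the log2 fold change was 0.14 (standard error 0.092), with an interval from -0.11 to 0.38. Within the replicate numbers the ratio of *Phf2* KO to WT was 0.18 and 0.10 on the log2 scale, and both 95% counting intervals lay above 0. *Keap1* overlaps the annotated gene *Gm16754* on the opposite strand, as *Gclm* does *Gm17494*, and the alignment is described as reverse stranded. On the same strand, *Nfe2l2* overlaps an annotated *U6* gene and *Gsr* a *SNORA48* gene.

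*Hmox1*, which encodes the inducible haem oxygenase that breaks haem down to biliverdin, iron and carbon monoxide, lies on chromosome 8 (77617490 to 77624495, forward strand). It had 7315 and 4426 reads in WT against 6908 and 4701 in *Phf2* KO. Normalized, this was 303.3 and 170.5 CPM in WT and 333.3 and 195.5 CPM in *Phf2* KO. The replicates of each group lay farther apart than the groups, which overlapped. The means were 236.9 ± 93.9 (SD, n = 2) and 264.4 ± 97.4 (SD, n = 2) CPM. *Hmox1* had a log2 fold change of 0.16 (standard error 0.38), which turned to -0.21 without WT replicate 2 and to -0.28 without *Phf2* KO replicate 1. In these fits too, the group that lost a library held a single replicate number. Within the replicate numbers *Phf2* KO was above WT by 0.14 (counting interval 0.09 to 0.18) and 0.20 (0.14 to 0.26) on the log2 scale. With the replicate block the change of 0.17 (standard error 0.086) was not called (Benjamini-Hochberg adjusted p = 0.264 in edgeR). The summed macrophage markers were also higher in *Phf2* KO within both numbers, as given above, with 13 of 20 markers higher and 7 lower in replicate 1 and 20 of 20 higher in replicate 2. Their part in the result was not tested.

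Of the detoxifying enzymes, *Nqo1* (chromosome 8, 109912125 to 109927106, reverse strand) encodes a quinone reductase that is widely used as an indicator of Nrf2 activity. It had 164 and 205 reads in WT against 96 and 177 in *Phf2* KO, or 6.80 and 7.90 and then 4.63 and 7.36 CPM. *Phf2* KO replicate 1 was the lowest library, while *Phf2* KO replicate 2 lay between the WT libraries. Its fold change of -0.29 on the log2 scale (standard error 0.28) was the largest in size among the 10, and larger than those of 81.2% of all genes tested. Within the replicate numbers the ratio was -0.55 (counting interval -0.92 to -0.19) and -0.10 (-0.39 to 0.19). Without *Phf2* KO replicate 1, when that group held replicate 2 alone, the fold change was 0.00085.

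*Gstm1* (chromosome 3, 107815173 to 107820891, reverse strand) encodes a mu-class glutathione S-transferase, which couples glutathione to electrophiles. Its level was 112.3 and 102.4 CPM in WT and 113.2 and 111.3 CPM in *Phf2* KO. WT replicate 1 lay between the *Phf2* KO libraries. Its fold change, 0.06 on the log2 scale (standard error 0.085), turned to -0.016 without WT replicate 2. Of its 1442 possible windows of 50 bases, the length of the reads, 12.7% also occur in transcripts of *Gstm2*, *Gstm2-ps1* or *Gstm3*. This is a share of windows and not of reads. Reads from them do not tell these genes apart, and how such reads were counted is not stated. For the other targets and regulators the share of such windows was 0%, or 0.517% for *Gclm*. Only the annotated protein-coding transcripts were searched, and not the rest of the genome. The neighbouring *Gstm2* was at 78.0 and 90.3 CPM in WT and at 90.3 and 99.8 CPM in *Phf2* KO, a log2 fold change of 0.18 (standard error 0.11). *Gstm5* lay lower in both *Phf2* KO libraries, at 25.3 and 25.4 CPM, than in WT, at 31.8 and 33.7 CPM. Its log2 fold change was -0.37 (standard error 0.096), with an adjusted p of 0.999 by edgeR's quasi-likelihood test and of 0.00467 with the replicate block, while DESeq2 with the same block gave 0.330. *Gstm4* was counted between 220 and 328 times, *Gstm6* between 33 and 79 and *Gstm7* between 22 and 40, with log2 fold changes of -0.21, -0.15 and 0.44 (standard errors 0.14, 0.48 and 0.34). *Gstm3* had 0 counts in WT and 1 in each *Phf2* KO library, which is within the limit of detection.

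Glutathione is made by glutamate-cysteine ligase, whose catalytic and modifier subunits are encoded by *Gclc* (chromosome 9, 77602342 to 77642292, forward strand) and *Gclm* (chromosome 3, 121948475 to 121972902, forward strand). *Gclc* was at 21.4 and 20.8 CPM in WT and at 19.0 and 19.5 CPM in *Phf2* KO. Both *Phf2* KO libraries were below both WT libraries, and the log2 fold change was -0.14 (standard error 0.10), with an interval from -0.41 to 0.14. *Gclm* was at 30.3 and 27.7 CPM in WT and at 35.7 and 29.6 CPM in *Phf2* KO. The highest library was *Phf2* KO replicate 1, *Phf2* KO replicate 2 lay between the WT libraries, and the log2 fold change was 0.17 (standard error 0.13). The subunits thus had fold changes of opposite sign, and neither was called. *Gsr*, which encodes glutathione reductase (chromosome 8, 34762995 to 34808635, forward strand), was at 28.9 and 24.5 CPM in WT and at 29.9 and 24.9 CPM in *Phf2* KO. Its libraries differed by replicate number and hardly by group. Fitted at 0.04 (standard error 0.15), its log2 fold change turned to -0.090 without WT replicate 2 and -0.098 without *Phf2* KO replicate 1.

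In the thioredoxin branch, *Txnrd1* (chromosome 10, 82296696 to 82360469, forward strand) encodes the cytosolic thioredoxin reductase, a selenoprotein. Its level was 108.9 and 109.7 CPM in WT and 124.4 and 111.3 CPM in *Phf2* KO. Both *Phf2* KO libraries were above both WT libraries, replicate 2 only just. *Txnrd1* had a log2 fold change of 0.11 (standard error 0.090), with ratios of 0.19 and 0.02 within replicates 1 and 2. *Srxn1* (chromosome 2, 151931252 to 151937112, forward strand) encodes sulfiredoxin, which restores over-oxidized peroxiredoxins. Its level was 63.4 and 46.2 CPM in WT and 58.4 and 47.0 CPM in *Phf2* KO, so that replicate 1 was the higher in both groups. Its log2 fold change, -0.06 (standard error 0.20), became 0.20 without WT replicate 1 and 0.09 without *Phf2* KO replicate 2.

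The groups did not overlap for 3 of the 10 genes. *Gclc* was lower in both *Phf2* KO libraries, as were 18.0% of all genes tested, and *Keap1* and *Txnrd1* were higher in both, as were 15.5% of all genes. Within the replicate numbers, *Hmox1*, *Keap1*, *Gclm*, *Txnrd1*, *Gsr* and *Gstm1* were above WT in both, which held for 32.5% of all genes. Of these, only *Hmox1* and *Keap1* had both counting intervals above 0. The share of all genes for which this held was not counted, and such intervals narrow as counts rise. Over all genes, replicates of a group differed by a chi-square per degree of freedom of 41.0 in WT and 28.0 in *Phf2* KO. Counting error was thus a small part of the spread between libraries. *Nqo1* and *Gclc* were below WT in both, which held for 30.2%, and neither had both counting intervals below 0. *Nfe2l2* and *Srxn1* were below WT in replicate 1, at -0.15 and -0.12, and above it by 0.02 each in replicate 2.

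**Figure D2:**
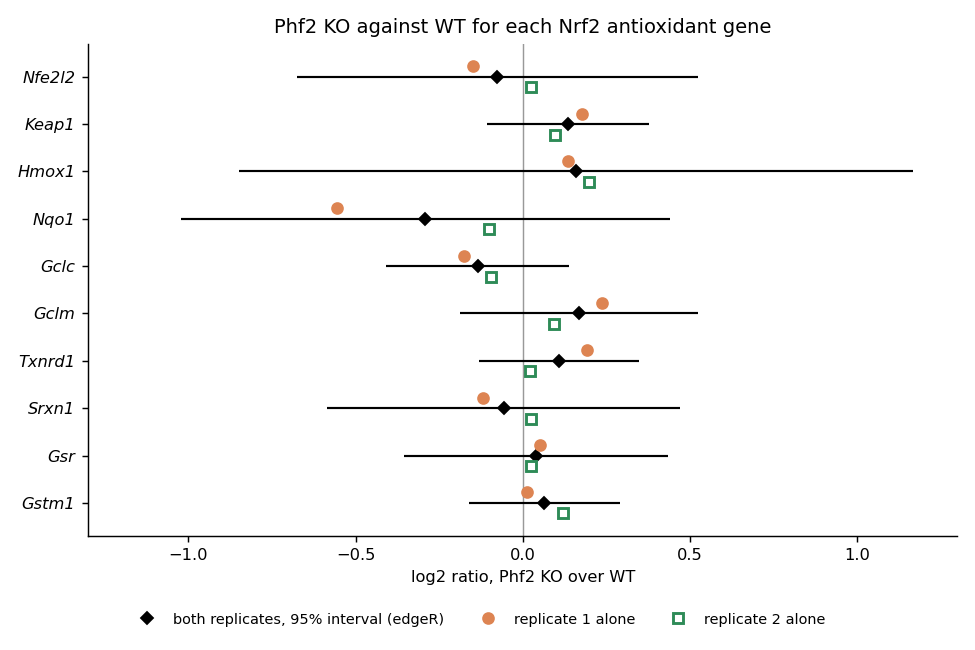
Log2 ratio of *Phf2* KO to WT (horizontal axis) for each gene, as fitted on all 4 libraries with its 95% interval from edgeR (diamonds and lines), and for replicate 1 (circles) and replicate 2 (squares) alone. Every interval crosses 0, *Hmox1* and *Nqo1* have the widest, and *Nqo1* has the largest gap between the replicate numbers.

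Levels between genes were compared per kilobase of annotated exon. In WT the order was *Hmox1* at 109.6 ± 43.5 (SD, n = 2) CPM per kb, *Gstm1* at 77.0 ± 5.03, *Txnrd1* at 27.2 ± 0.135, *Keap1* at 24.3 ± 1.82, *Nfe2l2* at 21.6 ± 5.63, *Srxn1* at 19.4 ± 4.31, *Gsr* at 9.69 ± 1.12, *Gclc* at 6.17 ± 0.115, *Gclm* at 5.65 ± 0.355 and *Nqo1* at 4.73 ± 0.499. Among neighbours in this order, *Hmox1* and *Gstm1*, *Keap1* and *Nfe2l2*, and *Nfe2l2* and *Srxn1* overlapped between libraries, and the other neighbours did not. In *Phf2* KO the order was the same but for *Gclm*, at 6.35 ± 0.845 (SD, n = 2) CPM per kb, and *Gclc*, at 5.62 ± 0.112, which changed places. There *Nfe2l2* and *Srxn1* were the neighbours that overlapped.

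Several of the 10 genes also differed between the replicate numbers. For 4 of the 10 that difference exceeded the size of the fold change between groups in both WT and *Phf2* KO, which held for 47.6% of all genes tested. *Hmox1* was higher in replicate 1 than in replicate 2 by 0.83 log2 units in WT and 0.77 in *Phf2* KO. For *Nfe2l2* the differences were 0.54 and 0.37, and for *Srxn1* 0.46 and 0.31. *Gsr* followed with 0.24 and 0.26. All 8 of these counting intervals lay above 0. *Nqo1* went the other way, at -0.22 (counting interval -0.51 to 0.08) in WT and -0.67 (-1.03 to -0.31) in *Phf2* KO. In all, 6 of the 10 were higher in replicate 1 in both groups, as were 32.7% of all genes tested, and *Keap1* and *Nqo1* were lower in both. No gene of the 10 spanned more than 1 log2 unit over the 4 libraries, and the largest span was 0.97, for *Hmox1*.

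Macrophage markers moved with the replicate number in the same direction as *Hmox1*. Of the 20 on the list, 20 were higher in replicate 1 in both groups, with median differences of 2.26 log2 units in WT and 1.83 in *Phf2* KO. *Lyz2*, the lysozyme gene of macrophages, was at 1324 and 315 CPM in WT and 1725 and 574 CPM in *Phf2* KO. *Cd68* was at 570 and 123 CPM in WT and 528 and 158 CPM in *Phf2* KO, and *C1qb* at 385 and 84.2 CPM and at 466 and 128 CPM. The median difference of the fibroblast markers was 0.01 in WT and 0.03 in *Phf2* KO. Of the other lists, endothelial markers summed to between 17.7 and 48.8 CPM, muscle markers to between 14.2 and 53.6, neural markers to between 59.4 and 69.4 and epithelial markers to between 0.482 and 0.998. The endothelial and muscle sums were also higher in replicate 1 of both groups. Of 6 muscle markers 1 passed the filter, *Des*, which held 53.0 of the 53.6 CPM in WT replicate 1. Of 7 endothelial markers 3 passed. *Kdr* was higher in replicate 1 by 1.03 and 1.15 log2 units and *Vwf* by 2.20 and 1.68. *Tek* differed by 0.26 and 0.03, with counting intervals that held 0. The part of any of these cell types in the differences between replicates was not tested.

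**Figure D3:**
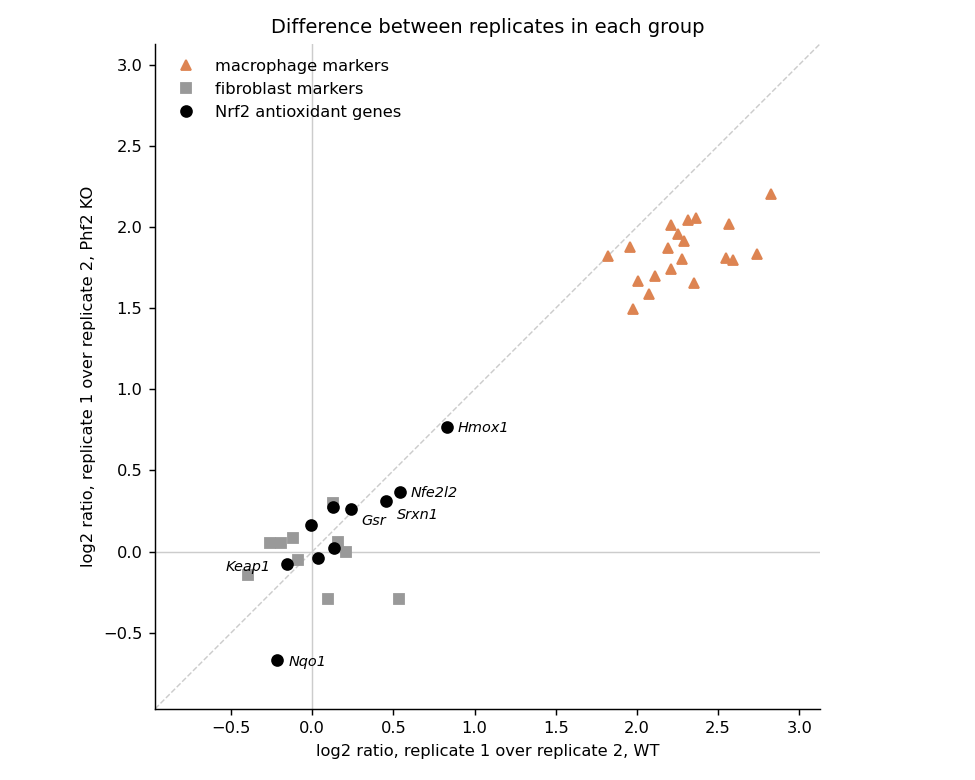
Log2 ratio of replicate 1 to replicate 2 in WT (horizontal axis) and in *Phf2* KO (vertical axis) for the Nrf2 antioxidant genes (black circles), fibroblast markers (grey squares) and macrophage markers (orange triangles), with equality as a dashed line. *Hmox1*, at 0.83 and 0.77, has the largest values of the 10, and *Nqo1*, at -0.22 and -0.67, on the other side of 0.

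The rest of the pathway was described with 8 lists of 127 genes, of which 113 passed the filter. None of the 113 was called by edgeR's quasi-likelihood test. At an unadjusted p-value under 0.05 it gave 6 higher and 3 lower, or 7.96% against 4.21% of all genes. DESeq2 called 0 of them and edgeR's fit with the replicate block 21 (13 higher and 8 lower), or 18.6% against 11.0% of all genes. The 13 were *Abcc3*, *Bach2*, *Cbr1*, *Ftl1*, *Idh2*, *Maff*, *Mafk*, *Mgst1*, *Prdx2*, *Prdx5*, *Sod1*, *Tfrc* and *Txnrd2*, and the 8 were *Abcc4*, *Akr1b8*, *Gpx3*, *Gstm5*, *Gsto2*, *Idh1*, *Nqo2* and *Nrip1*, all named for this call after their values were seen. Of the 21, DESeq2 with the same block called 5 (*Ftl1*, *Gpx3*, *Maff*, *Prdx5* and *Sod1*), did not call 11 and gave no adjusted p-value to 5. Limma-voom with the block called 19, all but *Abcc4* and *Cbr1*. The median log2 fold change over the 113 was 0.01, as over all genes, and 60 were above and 53 below 0. The highest and lowest genes given for each list come from those averaging 50 counts or more per library, so that some rarer genes lie outside them.

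Among 14 other genes listed here as regulators of Nrf2, a role that was not tested, the median log2 fold change was -0.02, and 6 were above 0. *Bach2*, which encodes a repressor that competes with Nrf2 for its element, had the highest value. It had 83 and 118 reads in WT against 120 and 146 in *Phf2* KO, a log2 fold change of 0.57 (standard error 0.22). The lowest was *Nrip1*, a nuclear receptor corepressor, at -0.27 (standard error 0.11). The small Maf genes *Maff* and *Mafk*, whose products pair with Nrf2 or with Bach proteins, were at 0.53 (standard error 0.15) and 0.32 (standard error 0.13). The other small Maf gene of the list, *Mafg*, was at 0.08 (standard error 0.087), and *Bach1* was at 0.10 (standard error 0.12). *Maff* had 415 and 557 reads in WT against 549 and 709 in *Phf2* KO.

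In glutathione supply and use (15 genes, median -0.02, 7 above 0), the extremes were *Gpx4*, the peroxidase that acts on lipid peroxides, at 0.18 (standard error 0.097) and the secreted peroxidase *Gpx3* at -0.26 (standard error 0.091). *Gpx3* had 10655 and 12156 reads in WT against 7722 and 9341 in *Phf2* KO.

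The thioredoxin system (15 genes, median 0.02, 8 above 0) ran from *Sesn3* at -0.18 (standard error 0.16) to *Txnrd2*, the mitochondrial thioredoxin reductase, at 0.52 (standard error 0.13). *Txnrd2* had 241 and 278 reads in WT against 313 and 350 in *Phf2* KO. Its cytosolic counterpart *Txnrd1* had the 0.11 given above.

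Of 17 glutathione transferases, 12 were below 0 and the median was -0.15, the lowest of the 8 lists. At that count the extremes were *Gsto2*, at -0.75 (standard error 0.27) on 67 and 77 counts in WT and 30 and 47 in *Phf2* KO, and the microsomal *Mgst1*, at 0.24 (standard error 0.076). The 17 other detoxification enzymes had a median of -0.04, between *Akr1b8*, an aldo-keto reductase, at -0.43 (standard error 0.23) and *Abcc3*, an efflux pump, at 0.29 (standard error 0.80).

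Of 12 genes for haem and iron handling, 9 were above 0 and the median was 0.14. *Ftl1*, the ferritin light chain, was the highest at 0.28 (standard error 0.27), with 31383 and 23216 reads in WT against 32990 and 25996 in *Phf2* KO, and *Abcb6* the lowest at -0.11 (standard error 0.12). Genes for NADPH supply (12 genes, median 0.04, 7 above 0) ran from *Idh1* at -0.28 (standard error 0.14) to *Idh2* at 0.22 (standard error 0.095), the cytosolic and mitochondrial isocitrate dehydrogenases. All 11 other antioxidant enzymes were above 0 (7003 of all genes tested were above and 6665 below), with a median of 0.10. Of these, *Sod1*, the cytosolic superoxide dismutase, had the highest value, 0.35 (standard error 0.088), on 4230 and 4868 counts in WT and 4673 and 5666 in *Phf2* KO. *Sod3* had the lowest, 0.01 (standard error 0.34). Within the replicate numbers, *Msra*, *Msrb2* and *Sepp1* were below WT in replicate 1, at -0.05, -0.03 and -0.01 on the log2 scale. *Sod2* and *Sod3* were below WT in replicate 2, at -0.03 and -0.05. The rest of the 11 were above WT in both numbers.

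**Figure D4:**
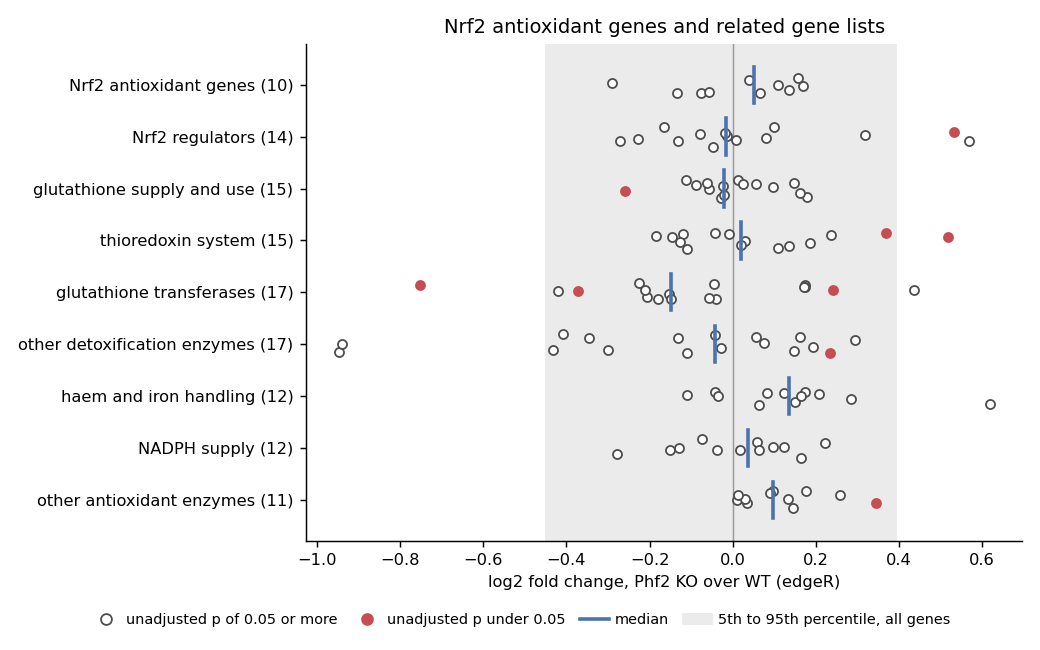
Log2 fold change of *Phf2* KO over WT (horizontal axis) for the Nrf2 antioxidant genes and the 8 related lists, with the number of genes tested in parentheses. Each circle is a gene, filled red where the unadjusted p-value was under 0.05, blue bars are medians, and the grey band spans the 5th to the 95th percentile of all genes tested, -0.45 to 0.39. All 10 Nrf2 antioxidant genes lie inside the band.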

How the data were processed

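RNA-seq counts of 2 WT and 2 *Phf2* KO libraries were analysed. Per the paper's methods, single reads of 50 bases went through Trim Galore, bowtie2 (to take out ribosomal RNA), STAR on mm9, run as reverse stranded, and featureCounts. The authors deposited raw, unnormalized counts. Tool versions and the annotation release are not given in the sources used here. The deposited table of the authors' DESeq2 comparison (fold changes and p-values) was not used.

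Counts were tested in R 4.3.3 with edgeR 4.0.16 (filterByExpr, TMM factors from 0.983 to 1.01, glmQLFit, glmQLFTest), genotype as the only term, p-values adjusted by Benjamini-Hochberg across 13668 genes, called under 0.1. Library depth was between 21094743 and 26094268 counts. Standard errors are the fold change divided by the square root of F. DESeq2 1.42.0, limma-voom 3.58.1, RLE factors, library size alone, 2 other filters, a threshold of 0.05, leaving out each library and the replicate block were alternatives. The block in DESeq2 and limma-voom was added after seeing the data. Scripts were tested on simulated data. Positions, exon lengths and windows of 50 bases came from GENCODE M1 on NCBIM37 (mm9), and figures and sequences used Python 3.11.15, pandas 2.3.3 and Matplotlib 3.10.9.

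The genes, lists and rules were chosen with earlier results of these data known. Named are the 10 genes, *Phf2*, *Xist*, *Ddx3y*, the *Gstm* genes, 5 cell type markers, every list gene called in the fit without a block and, in each list, the highest and lowest fold change among those whose mean count was 50 or more. For a gene spanning over 1 log2 unit, the 2 genes of nearest profile were to be named, and none did.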

Additional observations from a re-analysis of the deposited data

How the results depend on the processing

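No Nrf2 antioxidant gene was called under any of the 14 alternatives, their adjusted p-values (edgeR, DESeq2, limma-voom) running from 0.264 to 1.00, but DESeq2 with the block gave *Nqo1* none. Of 130 values of their fold changes under alternatives, 120 kept their direction, and the 10 that reversed came from leaving out 1 library. Such a fit compares groups that differ in replicate number, and so in sex, so a reversal can come from the difference between replicates. With each library left out, *Nfe2l2* ran from -0.34 to 0.23, *Hmox1* from -0.28 to 0.64, *Nqo1* from -0.67 to 0.00085, *Srxn1* from -0.28 to 0.20, *Gsr* from -0.098 to 0.17, *Gstm1* from -0.016 to 0.15, the median of the 10 from -0.13 (without WT replicate 2) to 0.16, and genes called from 0 to 0, against 1. Genes called were 64 with DESeq2, 0 with limma-voom and 0 at a threshold of 0.05. With the replicate block, 1500 genes were called, and 21 of the 113 genes of the related lists. With the block, added after seeing the data, DESeq2 called 302 and 5, and limma-voom 1371 and 19. The labels state no pairing. Across 11556 genes, which are not independent replicates, the difference between replicates 1 and 2 in WT had a Pearson's r of 0.854 with that in *Phf2* KO. The intervals given hold for the fit without the block, under which the standard error of *Hmox1* was 0.38, against 0.086 with it.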

Other observations

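Of the 12 tested genes for haem and iron handling, 9 were higher in replicate 1 than in replicate 2 of both groups, against 32.7% of all genes tested, and 3 were lower in both. Their median difference was 0.52 log2 units in WT and 0.48 in *Phf2* KO. The list and the genes named here were chosen with their values in view. Other lists also had many genes higher in replicate 1 of both groups. These were NADPH supply (8 of 12), other detoxification enzymes (11 of 17), the thioredoxin system (8 of 15) and other antioxidant enzymes (6 of 11). Fewer were higher among Nrf2 regulators (3 of 14), glutathione supply and use (2 of 15) and glutathione transferases (2 of 17, with 10 lower). *Tfrc*, which encodes the transferrin receptor, had 3167 and 868 reads in WT (replicate 1, then 2) against 2792 and 1161 in *Phf2* KO, a difference of 1.97 and 1.48 log2 units. *Slc40a1*, the iron exporter ferroportin, was higher in replicate 1 by 1.35 and 0.87 log2 units, *Blvrb*, a biliverdin reductase, by 0.97 and 0.89, and *Fth1*, the ferritin heavy chain, by 0.81 and 0.61. *Slc48a1*, a haem transporter, differed by 0.22 and 0.27. The 3 lower genes were *Fech*, the last enzyme of haem synthesis, at -0.01 and -0.12, the transporter gene *Abcb6* at -0.16 and -0.09, and *Hpx*, which encodes the haem-binding protein hemopexin, at -0.61 and -0.35. The counting intervals of these 3 genes held 0, except that of *Fech* in *Phf2* KO, and *Hpx* had between 17 and 37 reads. Catalase (*Cat*) was also higher in replicate 1, by 0.86 and 0.79, and extracellular superoxide dismutase (*Sod3*) lower, with differences of -0.79 and -0.64. The macrophage markers moved in the same direction as the 9 higher genes, and their part in these differences was not tested.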
